A study of Mus musculus with 8 samples.

Results

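Genes of cholesterol synthesis and of its sterol control were followed in sorted mouse hair follicle stem cells that lacked the transcription factors NFIB, NFIX or both. The 31 genes were taken by symbol from a deposited table of 46517 named genes, and all 31 were among the 15434 genes that passed a filter of at least 1 TPM (transcript abundance scaled to a fixed library total) in at least 2 libraries. They comprise 8 genes of the mevalonate steps, 11 genes of the squalene and sterol steps, 4 genes of SREBP control and 8 genes of sterol transport, liver X receptor (LXR) signalling and receptor turnover. RNA was taken from the back skin of males aged 70 days, in the second resting phase of the hair cycle, and each of the 4 genotypes had 2 libraries from differently numbered animals. Wild-type (WT) mice were NFIBfl/fl and NFIXfl/fl and are labelled without a Cre allele. NFIB-cKO mice carried Sox9-CreER with NFIBfl/fl. NFIX-cKO mice carried Sox9-CreER with NFIXfl/fl and with NFIBfl/+, so 1 Nfib allele was floxed in them too. NFIB/X-dKO mice carried Sox9-CreER with NFIBfl/fl and with NFIXfl/fl. All groups shared the reporter allele R26-YFPfl/fl, and the deletions were driven by a Cre recombinase under Sox9 control, which is active in hair follicle stem cells. Cells were sorted as negative for DAPI and Sca-1 and positive for integrin alpha 6 and CD34, and the knockout cells also as positive for YFP. WT differed from every knockout group in the Cre allele and in the YFP gate as well, so these cannot be told apart from gene loss in any contrast with WT.

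Cells make cholesterol from acetyl-CoA through mevalonate, isoprenoids, squalene and a series of sterol intermediates. When sterols in the endoplasmic reticulum are low, SCAP carries the transcription factor precursor SREBP2 (encoded by Srebf2) to the Golgi, where it is cleaved and then switches on most genes of the pathway. When sterols are plentiful, INSIG proteins hold SCAP and SREBP2 back, and oxysterols activate LXR, which raises sterol export. In skin, sterols are used for membranes, for the barrier and by the lipid-producing cells of the sebaceous gland, which lies beside the stem cell compartment of the follicle.

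Total expected counts were between 57173266 and 66854625 in the 5 libraries with count tables. The depth of the other 3 libraries, WT 34, WT 82 and NFIB-cKO 81, is unknown. The 11 hair follicle stem cell markers were all detected, with summed levels of 24342 to 34974 TPM, made up mostly of Krt5, Krt15 and Krt14. Both NFIB/X-dKO libraries were below both WT libraries for Krt15, Krt14, Lhx2, Sox9, Lgr5, Tcf7l1 and Foxc1 (17.1% of all genes). They were above both for Itga6 (38.4% of all genes). Lgr5 was at 121 and 129 TPM in WT and at 38.6 and 44.8 TPM in NFIB/X-dKO. Total Nfib RNA went against the labels, at 293 and 233 TPM in NFIB-cKO and at 377 and 389 TPM in NFIB/X-dKO, the highest of all libraries, against 230 and 209 TPM in WT. Nfix was at 138 and 123 TPM in NFIX-cKO and 125 and 148 TPM in NFIB/X-dKO against 158 and 157 TPM in WT. Gene totals do not show whether the floxed exons were lost, so the groups are named as labelled and each direction rests on those labels. Animal numbers fell in the 30s (WT 34, NFIX-cKO 32 and both NFIB/X-dKO libraries) or in the 80s (WT 82, NFIX-cKO 88 and both NFIB-cKO libraries), and the labels do not say whether this marks a batch. Between these series 15.8% of genes passed the test (limma, adjusted p under 0.05), and 2 of the 31 sterol genes did. That difference is set by WT 82 against WT 34 and NFIX-cKO 88 against NFIX-cKO 32, as NFIB-cKO and NFIB/X-dKO each lay in a single series. NFIB/X-dKO was shifted against WT by a median of 0.16 on the log2 scale over all genes. In these bulk samples, fewer cells of a type and less RNA per cell cannot be told apart.

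No sterol gene passed the test in any of the 7 planned contrasts, but levels of several synthesis genes and of Insig1 were lower in the knockout libraries than in WT. Tests were limma on log2(TPM + 1) with Benjamini-Hochberg adjustment over all genes, except NFIB/X-dKO against NFIX-cKO, which used edgeR's quasi-likelihood test on counts. Of the 31 genes, 0 were called in NFIB/X-dKO against WT, where 2.88% of all genes were called, and 5 had an unadjusted p under 0.05 (16.8% of all genes). NFIB-cKO against WT gave 0 calls (0.719% of all genes) and 9 genes at the unadjusted level (12.6%). NFIX-cKO against WT gave 0 calls (0.149%) and also 9 at the unadjusted level (6.81%). The counts in the other contrasts were 0 of 31 as well. They were read against 0.227% of genes called in NFIB/X-dKO against NFIB-cKO, 2.48% in NFIB deleted against NFIB retained, and 0.117% in the non-additive contrast. For NFIB/X-dKO against NFIX-cKO, 0.322% of genes were called by edgeR, and DESeq2 also called 0 of the 31. At the unadjusted level these 4 contrasts gave 11, 5, 9 and 3 of the 31, beside 17.2%, 15.4%, 9.43% and 14.7% of all genes.

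**Figure D1:**
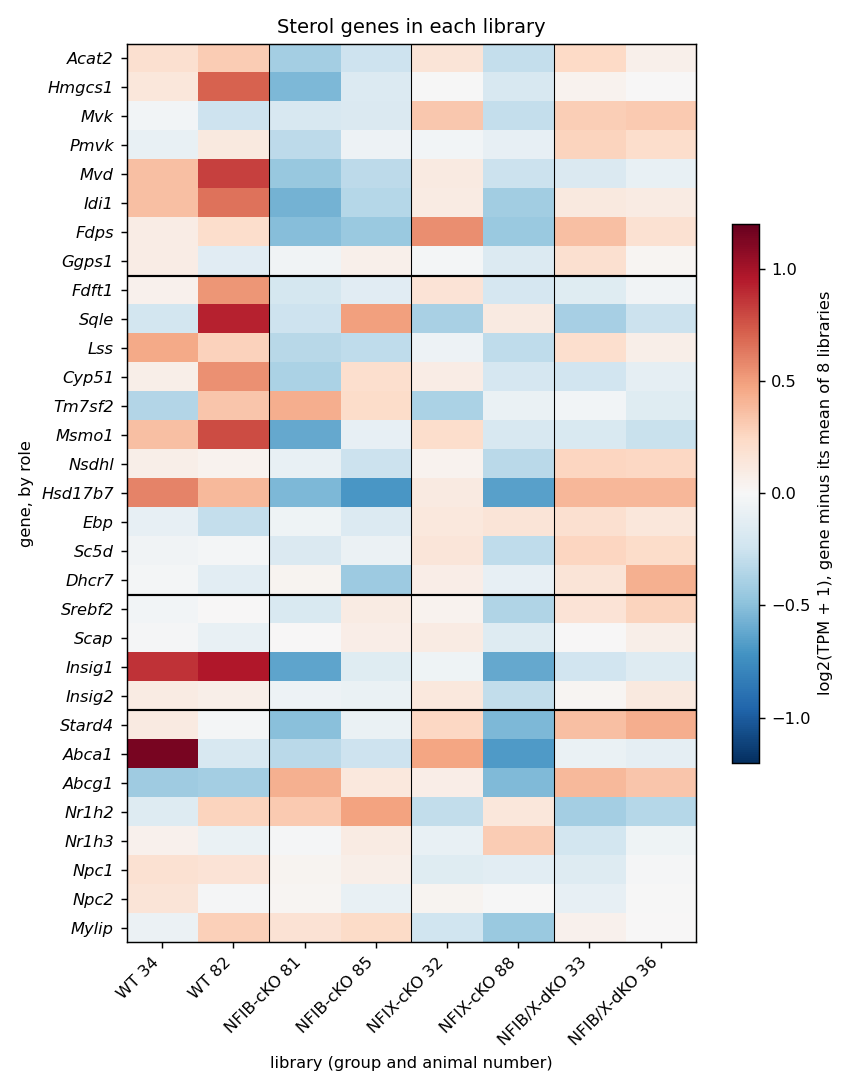
Level of each of the 31 sterol genes (rows, by role, with lines between the 4 roles) in each of the 8 libraries (columns), as log2(TPM + 1) minus the gene's mean over the 8 libraries. Hmgcs1, Mvd, Idi1, Lss, Msmo1, Insig1 and Npc1 were higher in both WT libraries than in all 6 knockout libraries.

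Both WT libraries lay above all 6 knockout libraries for 7 of the 31 genes, beside 4.16% of all genes, and no sterol gene had both WT libraries below all 6, beside 4.81%. For NFIB/X-dKO and WT alone, both knockout libraries were below both WT libraries for 11 genes (17.1% of all genes) and above for 10 (38.4%). For NFIB-cKO they were below for 16 (16.6%) and above for 3 (21.7%), and for NFIX-cKO below for 10 (16.2%) and above for 1 (9.64%). The 7 genes below WT in all knockout libraries were Hmgcs1, Mvd, Idi1, Lss, Msmo1, Insig1 and Npc1, and the count was made after the values were seen. After median-of-ratios scaling the count was 6 (4.94% of all genes), with Hsd17b7 in and Hmgcs1 and Npc1 out. Without WT 34 it was 12 (10.4% of all genes), and without WT 82 it was 10 (19.3%). Within the 30s, WT 34 was above its 3 knockout libraries for 13 of the 31 genes (29.2% of all genes). Within the 80s, WT 82 was above its 3 knockout libraries for 20 of the 31 (20.6% of all genes). The reverse order was found for 10 of the 31 in the 30s (28.4% of all genes) and for 2 of the 31, Ebp and Nr1h3, in the 80s (32.7%).

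The region before the start site is shown for 3 genes of this set, because SREBP2 and its partner NF-Y act on such regions in this pathway. Sequences are RefSeq's for GRCm38.p6, 5′ to 3′ on the gene's strand. Capitals mark the NF-Y box CCAAT (written ATTGG where it lies on the other strand) and, in Hmgcs1 only, the SREBP site TCACNCCAC. The Insig1 stretch is chr5:28071162-28071362 on the plus strand, Hmgcs1 is chr13:119690101-119690350 on the plus strand, and Mvd is chr8:122443423-122443672 on the minus strand.
Insig1: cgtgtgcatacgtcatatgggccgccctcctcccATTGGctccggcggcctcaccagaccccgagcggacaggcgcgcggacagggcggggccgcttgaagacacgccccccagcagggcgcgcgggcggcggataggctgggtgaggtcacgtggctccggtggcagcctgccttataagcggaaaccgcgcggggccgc
Hmgcs1: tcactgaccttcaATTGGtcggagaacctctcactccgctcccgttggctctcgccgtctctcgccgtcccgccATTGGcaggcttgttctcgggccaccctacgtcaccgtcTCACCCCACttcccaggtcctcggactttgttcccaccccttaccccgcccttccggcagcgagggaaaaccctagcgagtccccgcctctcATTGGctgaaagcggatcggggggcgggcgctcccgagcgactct
Mvd: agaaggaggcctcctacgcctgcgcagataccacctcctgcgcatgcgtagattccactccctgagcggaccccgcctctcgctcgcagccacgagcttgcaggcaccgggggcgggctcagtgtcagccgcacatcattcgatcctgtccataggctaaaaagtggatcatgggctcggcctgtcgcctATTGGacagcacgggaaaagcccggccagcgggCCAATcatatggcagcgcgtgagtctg
In these stretches the NF-Y box occurs 1 time for Insig1, 3 times for Hmgcs1 and 2 times for Mvd. Promoter entries of 250 bases before to 50 bases after the start were found for 25 of the 31 genes (32 entries) and searched on both strands. The NF-Y box was in 62.5% of these entries and in 37.4% of all 32851 entries. The SREBP site was in 1 of the 32 entries, that of Hmgcs1, and in 1.24% of all. The short NFI motif TTGGC was in 71.9% of the entries and in 46.7% of all. Of its 36 matches in these entries, 22 (61.1%) shared bases with an NF-Y box, beside 27.3% of its 21632 matches in all entries. The full NFI palindrome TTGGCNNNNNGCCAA was in 0 of the 32 and in 0.0365% of all. Median GC content was 62.3% in the entries of sterol genes and 52.7% in all. A match describes letters in a window and does not show binding.

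In the mevalonate steps, Mvd, Idi1 and Hmgcs1 were lower in the knockouts than in WT. Mvd, which decarboxylates mevalonate diphosphate, stood at 12.8 and 17.9 TPM in WT, 6.81 and 7.65 TPM in NFIB-cKO, 10.5 and 7.95 TPM in NFIX-cKO and 8.50 and 9.07 TPM in NFIB/X-dKO. Both WT libraries were the highest of the 8, and the knockout groups overlapped in part. The log2 difference from WT was -0.98 ± 0.22 (SE) for NFIB-cKO (limma, adjusted p = 0.114), -0.73 ± 0.22 for NFIB/X-dKO and -0.67 ± 0.22 for NFIX-cKO. Idi1, the isomerase that makes the isoprenoid building block, stood at 65.3 and 80.1 TPM in WT, 33.8 and 39.8 TPM in NFIB-cKO, 54.2 and 37.5 TPM in NFIX-cKO and 55.0 and 54.1 TPM in NFIB/X-dKO. WT was again above all others, and both NFIB-cKO libraries were below both NFIB/X-dKO libraries. The log2 difference was -0.96 ± 0.20 for NFIB-cKO against WT (limma, adjusted p = 0.101) and -0.40 ± 0.20 for NFIB/X-dKO against WT. Hmgcs1, which makes HMG-CoA, was at 110 and 165 TPM in WT, 68.8 and 89.6 TPM in NFIB-cKO, 99.9 and 87.6 TPM in NFIX-cKO and 104 and 101 TPM in NFIB/X-dKO. Here WT 34 lay close to the highest knockout library and WT 82 well above it. Hmgcs1 and Idi1 share 12.1% and 9.22% of their exon bases with annotated transcripts on the opposite strand, so their values could hold reads of those transcripts if strand was not used in counting. The other 5 genes of this role did not share this order. Acat2, Mvk, Pmvk, Fdps and Ggps1 had differences from WT between -0.63 and 0.45 over the 3 knockout groups. Fdps, the synthase of farnesyl diphosphate, ranged from 73.2 TPM in NFIB-cKO 81 to 155 TPM in NFIX-cKO 32, and shares 26.7% of its exon bases with an overlapping gene on the same strand, so its value is uncertain.

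In the squalene and sterol steps, Msmo1, Lss and Hsd17b7 were lower in single knockouts than in WT. Msmo1, a sterol methyl oxidase, stood at 81.1 and 109 TPM in WT, 40.9 and 58.6 TPM in NFIB-cKO, 73.2 and 54.8 TPM in NFIX-cKO and 55.3 and 52.2 TPM in NFIB/X-dKO. Both WT libraries were the highest, and NFIX-cKO 32 lay nearest to them. Its log2 difference from WT was -0.93 ± 0.23 in NFIB-cKO (limma, adjusted p = 0.144) and -0.80 ± 0.23 in NFIB/X-dKO (limma, adjusted p = 0.154). Lss, which closes the sterol rings, stood at 28.3 and 24.8 TPM in WT, 16.0 and 16.3 TPM in NFIB-cKO, 19.5 and 16.3 TPM in NFIX-cKO and 23.5 and 21.4 TPM in NFIB/X-dKO. The NFIB/X-dKO libraries lay between WT and both single knockouts without overlap. Hsd17b7, a sterol ketone reductase, stood at 13.0 and 11.1 TPM in WT, 5.40 and 4.72 TPM in NFIB-cKO, 9.01 and 4.89 TPM in NFIX-cKO and 11.2 and 11.3 TPM in NFIB/X-dKO. The NFIB/X-dKO libraries lay inside the WT range, near its lower end, and both NFIB-cKO libraries were far below. The log2 difference was -1.10 ± 0.26 for NFIB-cKO against WT (limma, adjusted p = 0.129) and its non-additive contrast was 1.78 ± 0.37 (limma, adjusted p = 0.340). That contrast also holds the difference between the series, as NFIB/X-dKO lay in the 30s and NFIB-cKO in the 80s. Between the 80s and the 30s Hsd17b7 differed by -0.49 ± 0.16 (limma, adjusted p = 0.0845). Fdft1, squalene synthase, had values of 31.9 and 44.9 TPM in WT and 26.5 to 34.7 TPM in the 6 knockout libraries, and shares 18.3% of its exon bases with a gene on the opposite strand. Sqle, squalene epoxidase, varied within groups, with 59.5 TPM in WT 82, 44.0 TPM in NFIB-cKO 85 and 23.2 to 33.6 TPM in the other 6. In each series of animal numbers its WT library lay above the 3 knockout libraries, with 26.5 TPM in WT 34. Its difference between the 80s and the 30s was 0.82 ± 0.27 (limma, adjusted p = 0.0806). The remaining 6 genes, Cyp51, Tm7sf2, Nsdhl, Ebp, Sc5d and Dhcr7, had differences from WT between -0.48 and 0.37. In NFIB/X-dKO against WT 4 of the 11 genes of this role had positive differences, Nsdhl (0.20), Ebp (0.35), Sc5d (0.27) and Dhcr7 (0.37). The other 7 were below 0, beside 32.7% of all genes, and the median over all genes was 0.16. Ebp, a sterol isomerase, was at 63.5 to 66.7 TPM in NFIX-cKO and NFIB/X-dKO against 54.4 and 47.6 TPM in WT.

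**Figure D2:**
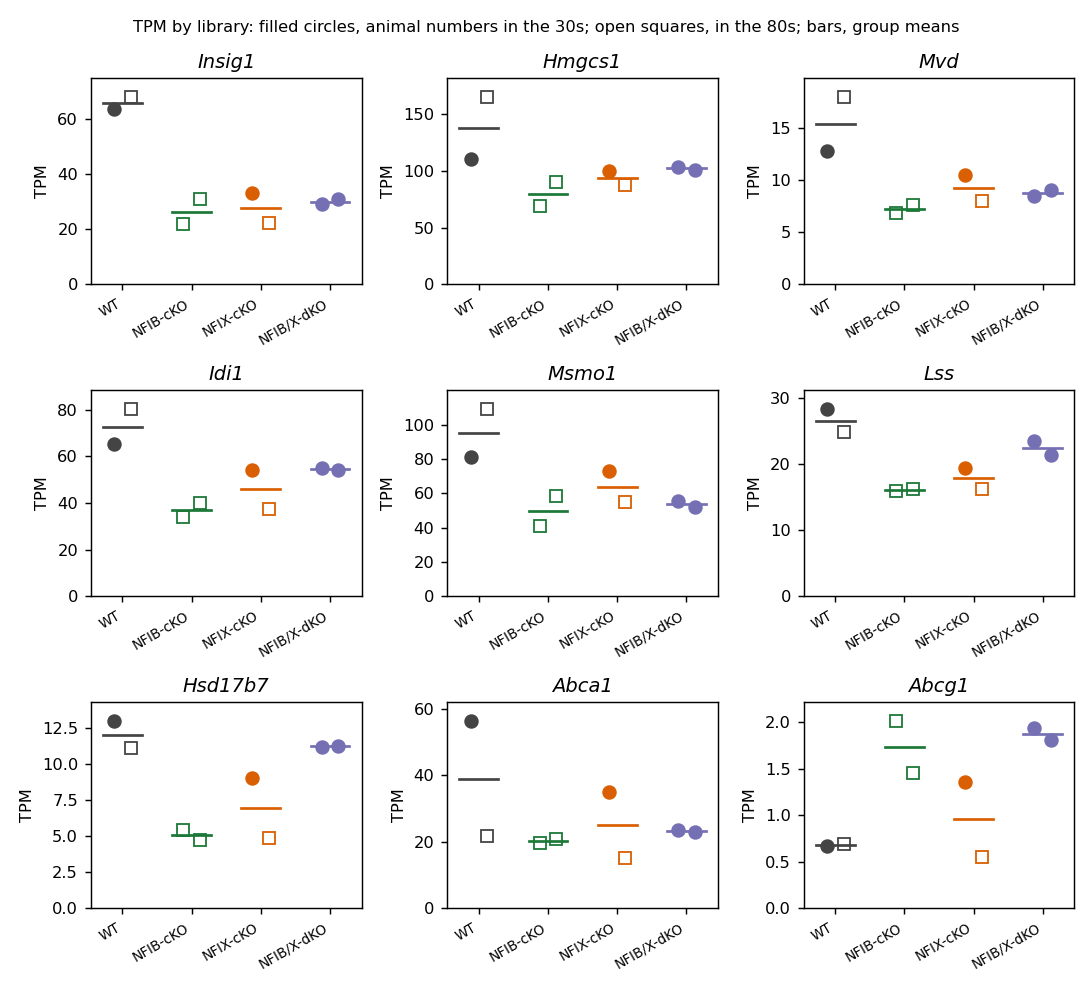
TPM (vertical axes, from 0) of 9 sterol genes by genotype. Points are libraries, filled circles for animal numbers in the 30s and open squares for the 80s, and bars are means of 2. Insig1 was at 63.6 and 68.0 TPM in WT and at 21.9 to 33.2 TPM in the knockouts.

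Insig1 showed the widest gap of the SREBP control genes. Its protein retains SCAP, and the gene is itself a target of SREBP2. It stood at 63.6 and 68.0 TPM in WT, 21.9 and 31.1 TPM in NFIB-cKO, 33.2 and 22.2 TPM in NFIX-cKO and 29.2 and 30.9 TPM in NFIB/X-dKO. All 6 knockout libraries lay far below both WT libraries, and the 3 knockout groups overlapped each other. Immediate early and heat shock genes included the same order, with both WT libraries above all 6 knockout libraries for 8 of 16 (4.16% of all genes), such as Jund at 445 and 475 TPM in WT and 199 to 304 TPM in the knockouts. Their median log2 difference was -0.74 for NFIB/X-dKO, -0.25 for NFIB-cKO and -0.79 for NFIX-cKO against WT. Of 37 mitochondrially encoded genes, 10 had that order, and their medians were -0.29, -0.67 and -0.48. The part of stress or RNA quality in the Insig1 values was not tested. The log2 difference from WT was -1.30 ± 0.23 for NFIB-cKO (limma, adjusted p = 0.0732), -1.11 ± 0.23 for NFIB/X-dKO (limma, adjusted p = 0.0594) and -1.25 ± 0.23 for NFIX-cKO (limma, adjusted p = 0.233). In a contrast added after the values were seen, the mean of the 3 knockout groups against WT, Insig1 fell by 1.22 ± 0.19 on the log2 scale (limma, adjusted p = 0.0355). It was the only 1 of the 31 called there, beside 1.15% of all genes. That call was lost without WT 34, WT 82, NFIB-cKO 81, NFIB-cKO 85, NFIB/X-dKO 33 or NFIB/X-dKO 36 (limma, adjusted p from 0.0591 to 0.168) and without the filter on low values (adjusted p = 0.102). The other genes of this role had no gap between WT and all the knockouts. Srebf2 was at 66.8 and 68.5 TPM in WT and 52.8 to 82.3 TPM in the knockouts, Scap at 45.6 and 43.4 TPM in WT and 41.4 to 49.5 TPM in the knockouts, and Insig2 at 33.5 and 32.9 TPM in WT and 25.4 to 34.4 TPM in the knockouts. The knockout range held both WT values for each of these 3 genes. By group, both NFIB/X-dKO libraries were above both WT libraries for Srebf2 and Scap (38.4% of all genes). Both NFIB-cKO libraries were above both WT libraries for Scap (21.7% of all genes) and below both for Insig2 (16.6%).

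**Figure D3:**
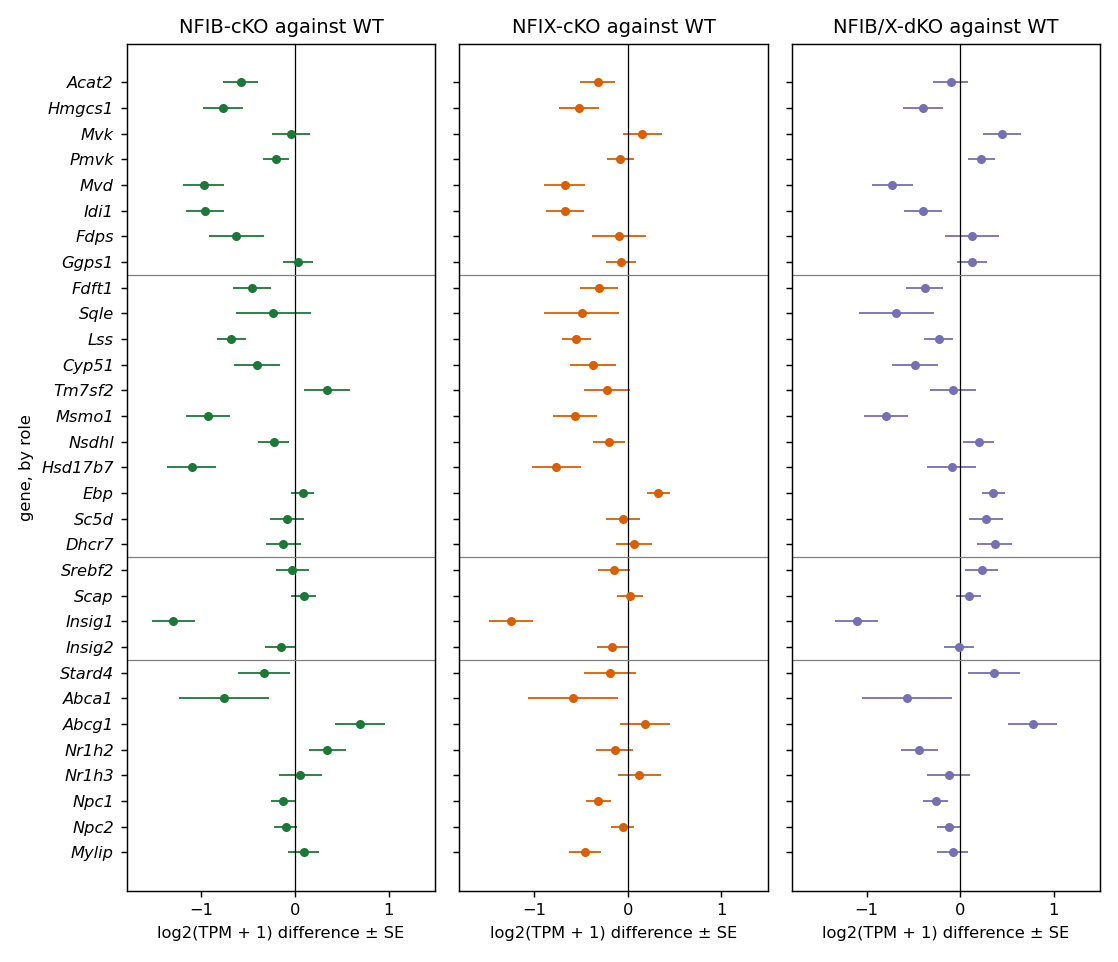
Difference from WT in log2(TPM + 1) (horizontal axes) for the 31 genes by role, 1 panel for each knockout group, with standard errors from limma (2 libraries a group). Insig1 lies at -1.30, -1.25 and -1.11, while Hsd17b7 lies at -1.10 in NFIB-cKO and near 0 in NFIB/X-dKO. The 3 panels share the WT libraries.

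Among transport and LXR genes, Abca1 and Abcg1, which encode sterol exporters, differed most, in different ways. Abca1 stood at 56.3 and 21.8 TPM in WT, 19.8 and 20.9 TPM in NFIB-cKO, 35.0 and 15.2 TPM in NFIX-cKO and 23.6 and 23.1 TPM in NFIB/X-dKO. The highest 2 libraries, WT 34 and NFIX-cKO 32, both had animal numbers in the 30s. Its difference between the 80s and the 30s was -1.24 ± 0.09 (limma, adjusted p = 0.0115). With the series as a covariate, Abca1 was called in NFIB/X-dKO against WT at -1.19 ± 0.11 (limma, adjusted p = 0.00693). That covariate is set by the WT and NFIX-cKO libraries alone. Without it the Abca1 difference was -0.57 ± 0.48, and without WT 34 it was 0.10. Abcg1 was near the filter, at 0.67 and 0.69 TPM in WT, 2.01 and 1.45 TPM in NFIB-cKO, 1.36 and 0.55 TPM in NFIX-cKO and 1.94 and 1.81 TPM in NFIB/X-dKO. It was the only 1 of the 31 whose 4 libraries labelled as Nfib-deleted all lay above the other 4, beside 6.84% of all genes, and 0 lay below, beside 2.11%. Its difference was 0.64 ± 0.19 (limma, adjusted p = 0.158). Nr1h2, encoding LXR beta, was the other gene that passed between the series, higher in the 80s by 0.43 ± 0.09 (limma, adjusted p = 0.0384). It stood at 63.8 and 85.6 TPM in WT, 88.6 and 99.6 TPM in NFIB-cKO, 57.7 and 78.2 TPM in NFIX-cKO and 53.1 and 55.7 TPM in NFIB/X-dKO. Nr1h3, encoding LXR alpha, was at 0.79 to 1.57 TPM in all libraries. Mylip, whose protein marks a lipoprotein receptor for degradation, stood at 18 and 23.28 TPM in WT, 21.48 and 22.30 TPM in NFIB-cKO, 15.81 and 13.62 TPM in NFIX-cKO and 19.67 and 18.96 TPM in NFIB/X-dKO, with both NFIX-cKO libraries the lowest. Npc1 and Npc2, which move cholesterol out of lysosomes, stayed within 17.1 to 21.9 TPM and 71.9 to 86.1 TPM, and Stard4, a sterol carrier, ranged from 8.01 to 16.8 TPM.

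NFIX-cKO had 1 library and 1 WT library in each series of animal numbers, which gave pairs with no shared control. Of the 31 genes, 16 were lower than WT in both pairs (36.2% of all genes) and 2, Ebp and Dhcr7, were higher in both (22.3% of all genes). Insig1 differed by -0.92 in the 30s and by -1.57 in the 80s. Lss differed by -0.52 and -0.58, and Hsd17b7 by -0.48 and -1.04. Most differences were wider in the 80s pair, and the median over the 31 genes was -0.38 when NFIX-cKO 32 was left out of the fit and -0.07 when NFIX-cKO 88 was left out.

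**Figure D4:**
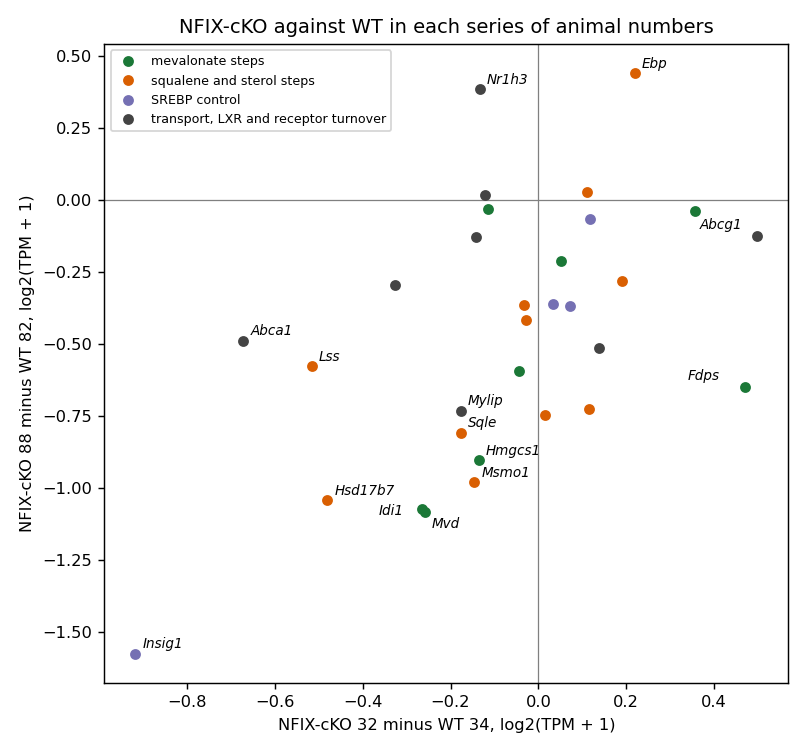
Difference in log2(TPM + 1) between NFIX-cKO and WT for the 31 genes, in the 30s pair (horizontal axis) and the 80s pair (vertical axis), coloured by role. Each point rests on 1 library a group, and 16 genes lie below 0 on both axes.

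By the size of the log2 difference in either direction, the double knockout was further from WT than NFIB-cKO for Mvk, Pmvk, Ggps1, Sqle, Cyp51, Ebp, Sc5d and Dhcr7. For the other synthesis genes it was not. Of those named, Sqle (-0.68) and Cyp51 (-0.48) were below WT in the double knockout. Above WT in it were Mvk (0.45), Pmvk (0.23), Ggps1 (0.13), Ebp (0.35), Sc5d (0.27) and Dhcr7 (0.37). In NFIB-cKO, Mvk, Pmvk, Sc5d and Dhcr7 had differences below 0. Over the 19 enzyme genes the median log2 difference from WT was -0.40 for NFIB-cKO (0.0048 over all genes), -0.09 for NFIB/X-dKO (0.16 over all genes) and -0.30 for NFIX-cKO (-0.05 over all genes). Summed over these enzymes, levels were 785 and 949 TPM in WT, 585 and 650 TPM in NFIB-cKO, 810 and 633 TPM in NFIX-cKO and 797 and 781 TPM in NFIB/X-dKO. The lowest 3 libraries were both NFIB-cKO libraries and NFIX-cKO 88, and both NFIB/X-dKO libraries lay close to WT 34. The sum of the differentiated epidermis markers, all 9 tested, had the same lowest 3 libraries, at 1736 and 1741 TPM in NFIB-cKO and 1792 TPM in NFIX-cKO 88. This sum was 2682 and 2115 TPM in WT, 4253 TPM in NFIX-cKO 32, and 3661 and 3567 TPM in NFIB/X-dKO. Taken singly, Krt1, Krt10 and Calm5 had those lowest 3 libraries, and Lor, Flg, Ivl, Sbsn, Krtdap and Lce1a1 did not. The part of epidermal cells in the enzyme levels was not tested. Both NFIB/X-dKO libraries were above both NFIB-cKO libraries for 17 of the 31 genes (49.0% of all genes) and below for 6 (23.1%). These 2 groups lay wholly in different series of animal numbers, which cannot be told apart from genotype. The median difference of the 31 genes between them was 0.19, and after median-of-ratios scaling it was -0.004. In the fit of those 2 groups alone, 8 of the 31 were called, where 3086 of 14712 genes (21.0%) were called.

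Among other sterol genes, 1 of 18 tested genes of sterol and isoprenoid branches fell in NFIB/X-dKO against WT (1.26% of all genes were called lower), and none was called higher. Soat1, which esterifies cholesterol for storage, stood at 11.8 and 19.7 TPM in WT, 3.79 and 6.15 TPM in NFIB-cKO, 11.6 and 8.39 TPM in NFIX-cKO and 3.43 and 3.76 TPM in NFIB/X-dKO. All 4 libraries labelled as Nfib-deleted lay below the other 4. Soat1 fell by 1.83 ± 0.31 in NFIB/X-dKO against WT (limma, adjusted p = 0.0293), a call lost with the series as a covariate (limma, adjusted p = 0.0533), within series, without the filter, in the fit of both groups alone, and without WT 82, NFIB/X-dKO 33 or NFIB/X-dKO 36 (limma, adjusted p up to 0.206). In the contrasts with WT, limma called 0 of 12 genes of SREBP processing, 0 of 26 of sterol uptake and transport and 0 of 9 LXR partners. At an unadjusted p under 0.05 they numbered 2 of 12, 3 of 26 and 3 of 9 for NFIB/X-dKO against WT, beside 16.8% of all genes. Their medians were 0.27, 0.20 and 0.11 beside 0.16 over all genes. Of 16 fatty acid synthesis genes, 4 fell in NFIB/X-dKO against WT, namely Scd1 (log2 difference -2.79 ± 0.27), Elovl6, Acss2 and Elovl5 (limma, adjusted p from 0.00501 to 0.0304). The call of Scd1 held in every alternative run for that contrast, and those of Elovl6, Acss2 and Elovl5 were each lost in some.

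Most sebaceous gland markers were lowest in NFIB/X-dKO or NFIB-cKO and highest in WT 82, but Mgst1, the most abundant of the list, was not. Awat1, a wax synthase of that gland, stood at 4.80 and 13.6 TPM in WT, 1.70 and 1.82 TPM in NFIB-cKO, 4.09 and 4.81 TPM in NFIX-cKO and 0.60 and 0.49 TPM in NFIB/X-dKO. Cidea, a lipid droplet gene, had 13.5 and 24.4 TPM in WT and 0.87 and 0.38 TPM in NFIB/X-dKO. Mgst1 stood at 243 and 239 TPM in WT, 218 to 260 TPM in the single knockouts and 314 and 324 TPM in NFIB/X-dKO. The 12 markers summed to 404 and 536 TPM in WT, 303 and 291 TPM in NFIB-cKO, 413 and 405 TPM in NFIX-cKO and 369 and 373 TPM in NFIB/X-dKO, with 9 of 12 tested and Plin5 at or under 0.10 TPM. Without Fabp5 and Mgst1, the most abundant markers, left out after the values were seen, NFIB/X-dKO was below NFIB-cKO instead of above it, and sums were 64.1 and 123 TPM in WT, 19.6 and 23.1 TPM in NFIB-cKO, 56.8 and 62.3 TPM in NFIX-cKO and 10.7 and 6.65 TPM in NFIB/X-dKO. WT 82 was highest in that sum, as it was for Soat1. WT 82 lay above all 6 knockout libraries for 12 of the 31 sterol genes, beside 10.4% of all genes. Of these, Lss and Npc1 were highest in WT 34, and Acat2, Hmgcs1, Mvd, Idi1, Fdft1, Sqle, Cyp51, Msmo1, Insig1 and Mylip in WT 82. For Insig1 the NFIX-cKO and NFIB-cKO libraries overlapped, and for Lss both NFIB/X-dKO libraries were above both NFIB-cKO libraries. Cell cycle genes, a list of 17 with 0 called by limma, had median differences from WT of 1.73 for NFIB-cKO, 0.55 for NFIB/X-dKO and 0.90 for NFIX-cKO, beside 0.0048, 0.16 and -0.05 over all genes. At an unadjusted p under 0.05 they numbered 12, 4 and 7 of 17, beside 12.6%, 16.8% and 6.81% of all genes. Adipocyte markers stayed at 0.10 to 0.44 TPM in sum. The part of sebaceous cells or of cell cycling in the sterol values was not tested.

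**Figure D5:**
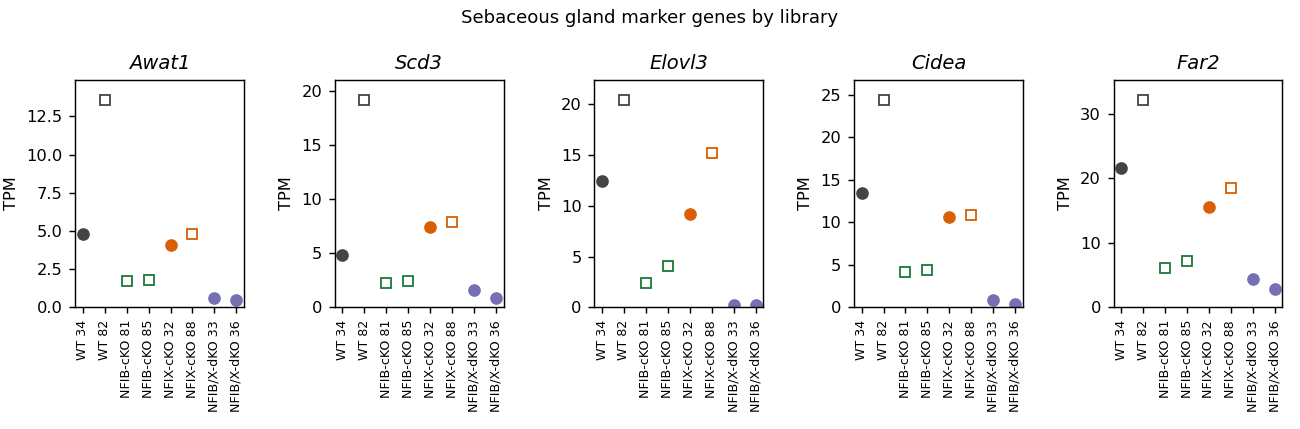
TPM (vertical axes, from 0) of 5 sebaceous gland markers in each of the 8 libraries, coloured by genotype, with filled circles for the 30s and open squares for the 80s. For these 5 of the 12 listed markers WT 82 is highest and the NFIB/X-dKO libraries are lowest. Of the markers not shown, Pparg had this order, and Mc5r, Awat2, Dgat2l6, Plin5, Fabp5 and Mgst1 did not.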

How the data were processed

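RNA sequencing of sorted hair follicle stem cells was read from a table of TPM that the authors deposited for 8 libraries, and from expected counts per gene that the authors deposited for 5 of them. Bowtie2 2.2.9, RSEM 1.2.30 and mm10 are named per the submitters' processing notes, and the annotation release and use of strand are not given in the sources used here. TPM keeps no depth, and reads shared by overlapping genes were divided by estimation.

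TPM was tested as log2(TPM + 1) with limma 3.58.1 (R 4.3.3, trended variance), in 1 fit of the 4 groups over genes with at least 1 TPM in at least 2 libraries. Differences on this scale understate changes of low genes. Expected counts were rounded and tested with edgeR 4.0.16 (TMM factors, quasi-likelihood) over 18349 genes for NFIB/X-dKO against NFIX-cKO. P-values were adjusted by Benjamini-Hochberg, and calls use 0.05. Both steps were tested on simulated data. Replicates are differently numbered animals. NFIB deleted against retained compares NFIB-cKO and NFIB/X-dKO with WT and NFIX-cKO, and the non-additive contrast is NFIB/X-dKO minus both single knockouts plus WT.

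The members and lists were chosen with earlier results of these data known, and the lists do not hold every gene of the pathway. The result of 1 gene of these lists is not reported here, and counts are over the other genes. All 31 members are accounted for by role. Library values are given for members past the test in any contrast, for the 3 per role with the smallest p for NFIB deleted against retained, and for up to 4 genes per other list by the same order. Further members, markers and the contrast of 3 knockout groups with WT were added after the values were seen. Alternatives were a pseudocount of 0.1, no filter, median-of-ratios scaling, the series of animal numbers as covariate or within series, the 2 groups alone, DESeq2 1.42.0, and each library left out.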

Additional observations from a re-analysis of the deposited data

How the results depend on the processing

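No paired analysis was possible because no animal number occurs in more than 1 group, and the coarser series of animal numbers entered as a covariate and in within-series fits. With 2 libraries a group, calls depended on single libraries. For NFIB/X-dKO against WT, the share of all genes called was 2.85% after median-of-ratios scaling, 2.19% in the fit of both groups alone and 4.03% with the series as covariate. The count of sterol genes called was 0 of 31 in each planned contrast and changed as follows. In NFIB/X-dKO against WT it was 1 after median-of-ratios scaling and in the fit of both groups alone (Insig1), 1 with the series as covariate and 1 within series (Abca1), and 0 to 1 with single libraries left out (Insig1 without NFIX-cKO 32 or NFIX-cKO 88). In NFIB-cKO against WT, leaving out libraries gave 0 to 2 (Insig1 without NFIX-cKO 32, and Insig1 and Hsd17b7 without NFIX-cKO 88). In NFIB/X-dKO against NFIB-cKO the fit of both groups alone gave 8, beside 21.0% of all genes. In NFIB deleted against retained it was 1 with the series as covariate (Abca1), beside 7.87% of all genes. Within series it was 2 (Abca1 and Mvd), beside 6.52% of all genes. In NFIB/X-dKO against NFIX-cKO, the count rose when an NFIX-cKO library was left out. Those fits held 1 library in that group, and calls over all genes rose as well. For the 3 knockout groups against WT it was 1 (1.15% of all genes). It was 3 with the covariate (Lss, Insig1 and Abca1), beside 4.05% of all genes, and 0 without the filter (0.322%). Leaving out single libraries lost the Insig1 call in some fits. The count of genes with both WT libraries on top was 7 (4.16% of all genes), and 7 to 12 with libraries left out. The share of all genes then ran from 4.50% without NFIB/X-dKO 36 to 19.3% without WT 82. Calls over all genes moved by more than 1.5 times in many settings, for NFIB/X-dKO against NFIX-cKO from 59 to 835 with DESeq2, 202 without a filter, 121 with limma and 0 without either NFIB/X-dKO library. For NFIB/X-dKO against WT they moved from 445 to 270 without a filter and 40 without NFIB/X-dKO 36. For NFIB deleted against retained they moved from 382 to 1214 with the covariate. Of 1176 alternatives for 95 gene results, 1028 kept direction and call, 104 lost a call, 36 gained one and 8 turned direction. The 8 were Abca1 without WT 34 in NFIB/X-dKO (range with libraries left out -1.23 to 0.098) and in the 3 knockout groups (-1.30 to 0.030) against WT, and 6 in NFIB/X-dKO against NFIX-cKO. These 6 were Abca1 without NFIX-cKO 32 (range with libraries left out -0.65 to 0.25), Abca1 (0.012), Ebp (0.025) and Npc1 (0.0518) with limma, and Sqle (0.22) and Npc1 (0.0517) with limma and the covariate. The cause was not tested. Depth is unknown for 3 libraries, which limits what can be said of low genes such as Abcg1 and Nr1h3.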
